A study of Homo sapiens with 2 samples.

Results

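The genes that join the plasma membrane to the cortical cytoskeleton were compared between a RUNX2-suppressed clone of SKOV3 cells and its control clone. They are described by role: EZR, RDX and MSN (ezrin, radixin and moesin, the ERM proteins), NF2 (merlin), CD44, MARCKS and MARCKSL1, EPB41L2 and EPB41L3, and ADD1. The members were chosen by symbol, and every array probe whose RefSeq accession maps to 1 of these 10 symbols was taken. This gave 19 of the 41000 probes and 10 of the 17240 genes that could be named. All 19 probes were well above background in both RNAs and both hybridizations, and none was lost to a filter.

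ERM proteins bind the tails of membrane proteins with their FERM domain and bind actin filaments with their C-terminal end, once phosphorylation opens the folded molecule. Merlin shares the FERM domain, works as a tumor suppressor upstream of the Hippo kinases, and competes for some of the same membrane partners, of which the hyaluronan receptor CD44 is the best known. In carcinoma cells these proteins shape microvilli, adhesion and motility.

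SKOV3 is a human ovarian adenocarcinoma line. The clone cl-sh3 was selected with puromycin after lentiviral transduction with a RUNX2 shRNA in the pLKO.1-puro vector, and the control (mock-transfected) clone was made with the same vector carrying a scramble sequence. Each side is therefore 1 clone, and a difference that came with clonal selection cannot be told apart from one that followed the shRNA. In RNA of whole cultures, a lower signal can come from fewer cells with the transcript or from less of it per cell, and these cannot be told apart either. Total RNA of both clones was labelled and co-hybridized to whole-genome Agilent arrays, with cl-sh3 in Cy5 in hybridization 1 and in Cy3 in hybridization 2. The pair of arrays repeats the same RNAs on 1 slide, so there is 1 replicate, no p-value, and the SD printed below is that of the 2 hybridizations and measures technical error. A positive log2 ratio means a higher signal in cl-sh3 throughout. The normalized intensities printed are linear spot intensities of 1 probe, comparable between the RNAs for that probe and not between probes. They were normalized within each array and not between arrays. Where values of the clones are said to overlap or to lie apart over both arrays, this describes the readings only.

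The level of the targeted gene depended on the probe. On the brightest RUNX2 probe (A_32_P161762) cl-sh3 read 696 and 793 in hybridizations 1 and 2, against 2856 and 1959 in the control. The dimmer probe of the same accession read 501 and 220 in cl-sh3 against 444 and 241 in the control, and the probe of NM_001015051 read 210 and 148 against 258 and 167. As to the cells themselves, 8 of 10 epithelial carcinoma markers were higher in cl-sh3 in both hybridizations, where 30.9% of all genes were, with a median log2 ratio of 0.40 beside 0.01 over all genes. On the brightest probe 0 of the 10 reached 1.5-fold in both. They were led by the keratin KRT7 at 0.49 and 1.17, and the receptor ERBB2 was lower on its brightest probe at -0.86 and -0.45. Neither of these shifts was tested for a part in the values of the linker genes. None of the 4 leukocyte markers and the 2 measured fibroblast markers reached 1.5-fold in both hybridizations, and PTPRC, which defines leukocytes, read between 185 and 232 in all 4 channels. Over all measured probes the median absolute difference between hybridizations was 0.22 log2, and 95% differed by less than 0.63. No linker probe exceeded that 95% limit, the widest pair of values being 0.55 apart.

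3 stretches of upstream sequence are shown because they belong to the genes with the largest changes (EZR and NF2) and to a gene without one (EPB41L3). Each is the 250 bases before the annotated start of RefSeq on build GRCh38.p14, written along the gene's strand. Of several starts the one farthest upstream was taken. Capitals mark the RUNX core letters TGTGGT or TGCGGT, searched on both strands with overlapping matches allowed. The windows lie at chr6:158818236-158818485 on the minus strand for EZR, chr22:29603306-29603555 on the plus strand for NF2 and chr18:5628992-5629241 on the minus strand for EPB41L3.
EZR: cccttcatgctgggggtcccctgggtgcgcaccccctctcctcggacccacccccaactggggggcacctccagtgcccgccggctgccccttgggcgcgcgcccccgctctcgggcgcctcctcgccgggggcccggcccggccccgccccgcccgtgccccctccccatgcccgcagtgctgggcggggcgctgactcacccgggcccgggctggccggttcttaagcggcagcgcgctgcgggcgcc
NF2: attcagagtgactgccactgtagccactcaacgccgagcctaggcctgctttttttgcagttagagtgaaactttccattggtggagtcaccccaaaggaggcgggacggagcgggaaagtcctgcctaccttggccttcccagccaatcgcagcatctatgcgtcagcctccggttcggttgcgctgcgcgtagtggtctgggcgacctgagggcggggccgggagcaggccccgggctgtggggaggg
EPB41L3: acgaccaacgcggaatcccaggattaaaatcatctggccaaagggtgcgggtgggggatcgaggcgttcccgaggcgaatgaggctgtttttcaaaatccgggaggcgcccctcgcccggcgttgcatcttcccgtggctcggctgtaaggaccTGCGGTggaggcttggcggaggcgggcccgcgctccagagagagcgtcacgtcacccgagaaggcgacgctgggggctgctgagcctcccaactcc
The EZR and NF2 windows hold neither motif in these letters, and the EPB41L3 window holds 1 match that begins 96 bases before the start. Among the 18 upstream windows listed for the 10 genes, 2 held a match, both of EPB41L3, whereas 5727 of all 35116 windows (16.3%) did. Other genes with means near 0, such as EPB41L2 and MARCKSL1, had no match. The contrast between the 3 windows shown therefore follows from the choice of EPB41L3. A match is a description of letters and not a binding site, and these arrays measured no binding.

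Ezrin gave the largest value of the group and also its largest disagreement. Both EZR probes carry the accession NM_003379, on chromosome 6. On probe A_24_P290481, cl-sh3 read 7316 in hybridization 1 and 4774 in hybridization 2, and the control read 2370 and 1966. Both cl-sh3 values lay above both control values. The ratio was 3.09-fold in hybridization 1 and 2.43-fold in hybridization 2, a mean log2 ratio of 1.45 ± 0.25 (SD). This was the 16th highest mean of 36060 measured probes, and 1 of 44 probes (0.122%) with a cl-sh3 excess of 2-fold or more on both arrays, which is the fold rule of the study. It was the single linker probe of 19 to pass that rule.

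On the other EZR probe, A_23_P19590, cl-sh3 read 42524 and 43327 against 48778 and 35246 in the control. Here the values of the clones overlapped and the direction followed the dye, with log2 ratios of -0.20 and 0.30. The mean was 0.05 ± 0.35 (SD). With median centring in place of loess the ratios were 0.12 and 0.32, both above 0, with a mean of 0.22. The means of the EZR probes lay 1.40 log2 apart. Of 4308 genes with 2 measured probes, the median distance was 0.16, and 7 genes (0.162%), EZR included, had probes at least as far apart as EZR. Which stretch of the EZR transcript each oligonucleotide reads was not analysed here, so the data do not say which of the readings stands for total EZR mRNA.

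**Figure D1:**
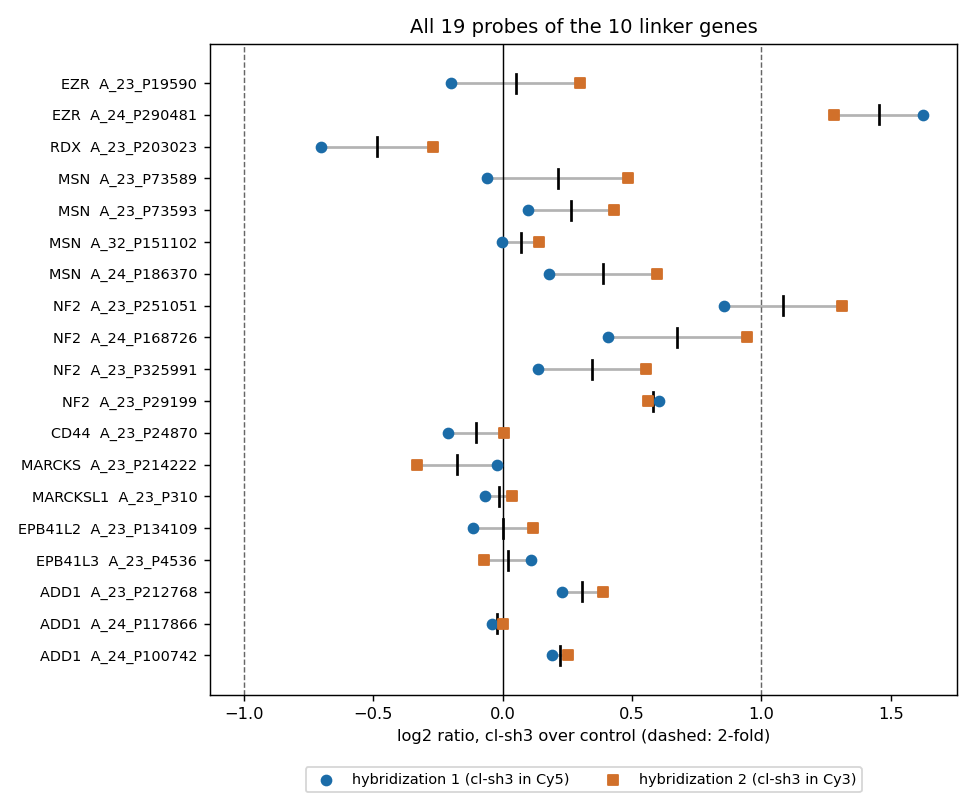
Log2 ratio of cl-sh3 over control for all 19 probes of the 10 genes, with circles for hybridization 1, squares for hybridization 2 and a black tick for their mean; within a gene, probes are ordered from the brightest to the dimmest. A_24_P290481 of EZR lies past the dashed 2-fold line in both hybridizations, the 4 NF2 probes lie right of 0, and RDX lies left of it.

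Probes of other genes were set side by side in the same way. Of 5565 genes with at least 2 measured probes, 16 had a probe that passed the 2-fold rule upward, and in 0 of these 16 did every measured probe pass. In 4 of them, EZR among them, another probe had a mean at or below 0.05. For decreases, 48 genes had a probe at least 2-fold lower and 5 had every measured probe past that fold.

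**Figure D2:**
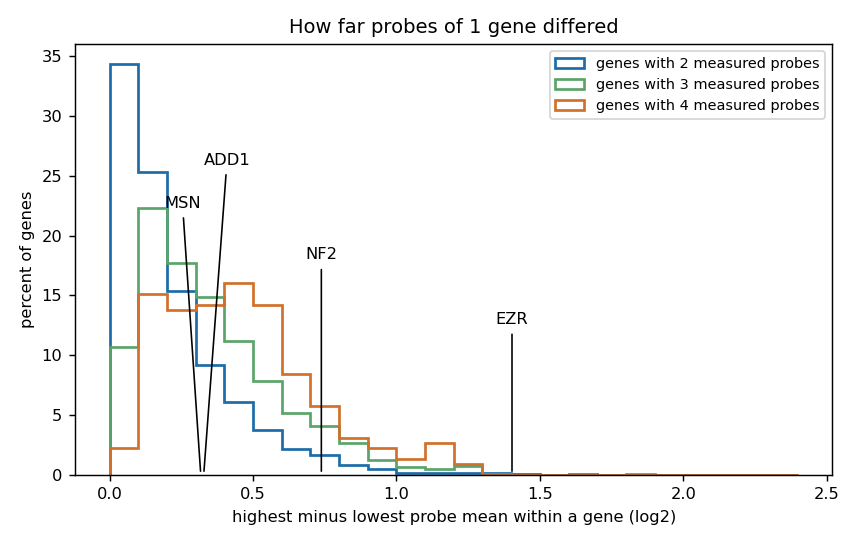
Distance between the highest and lowest probe mean within a gene (x axis, log2) for genes with 2, 3 or 4 measured probes, as a percent of each class (y axis). EZR at 1.40 lies in the far tail of genes with 2 probes, while 30 of 225 genes with 4 probes spanned at least the 0.74 of NF2; ADD1 spanned 0.33 and MSN 0.32.

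Radixin, the second ERM protein, was lower in cl-sh3. Its single probe A_23_P203023 (NM_002906, chromosome 11) read 4596 and 5415 in cl-sh3 against 7472 and 6529 in the control. Both control values lay above both cl-sh3 values. The control exceeded cl-sh3 by 1.63-fold in hybridization 1 and 1.21-fold in hybridization 2, a mean log2 ratio of -0.49 ± 0.30 (SD). This was the lowest mean among the linker probes and stood 2241st from the bottom of the 36060 measured. It did not reach 1.5-fold in hybridization 2. No linker probe was at least 1.5-fold lower in both hybridizations, against 2.32% of all measured probes, and none was at least 2-fold lower, against 0.394%.

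Moesin, the remaining ERM protein, was read by 4 probes of NM_002444 on chromosome X, and none of them reached 1.5-fold in both hybridizations. The brightest, A_23_P73589, read 21215 and 24249 in cl-sh3 against 22114 and 17319 in the control. Its clones overlapped, with log2 ratios of -0.06 and 0.49. A_23_P73593 gave 0.10 and 0.43, and A_24_P186370 gave 0.18 and 0.60. The probe A_32_P151102 lay nearest to 0, with a mean of 0.07 ± 0.10 (SD). The 4 means spanned 0.32 log2, which is less than the median of 0.43 over the 225 genes with 4 measured probes. The log2 ratios of all 4 MSN probes were higher in hybridization 2, where cl-sh3 carried Cy3, than in hybridization 1. The median over all linker probes, those of MSN included, was also higher in hybridization 2, at 0.30 against 0.10 in hybridization 1. Over all measured probes there was no such lean, with medians of -0.002 in hybridization 2 and 0.02 in hybridization 1. The source of the lean was not tested.

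All 4 NF2 probes were higher in cl-sh3 in both hybridizations. Merlin was read by 3 probes of NM_181831 and 1 of NM_181832, both transcript variants of NF2 on chromosome 22. On the brightest, A_23_P251051 of NM_181832, cl-sh3 read 53376 and 69067 against 29489 and 27838 in the control. Both cl-sh3 values exceeded both control values, and the mean log2 ratio of 1.08 ± 0.32 (SD) was the 65th highest of 36060. The ratio was 1.81-fold in hybridization 1 and 2.48-fold in hybridization 2, so the probe missed the 2-fold rule by hybridization 1. With median centring in place of loess it passed in both.

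The other NF2 probes were dimmer and moved less. A_24_P168726 read 1262 and 1544 in cl-sh3 against 953 and 802 in the control, with a mean of 0.68 ± 0.38 (SD). A_23_P325991 read 354 and 364 against 321 and 248, with a mean of 0.35 ± 0.29 (SD). A_23_P29199 read 408 and 334 against 269 and 226, and its log2 ratios of 0.60 and 0.56 were the closest pair among the NF2 probes. Its mean of 0.58 depended on the processing, at 0.48 without background correction and 0.77 on the log ratios of the scanner software. On each of these probes both cl-sh3 readings exceeded both control readings. Of the 225 genes with 4 measured probes, 16 (7.11%) had all 4 higher in cl-sh3 in both hybridizations, and NF2 was 1 of them. In 4 of these 16 genes, NF2 included, the lowest probe mean was at least the 0.35 of NF2, and in 2, NF2 included, the highest was at least 1.08.

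**Figure D3:**
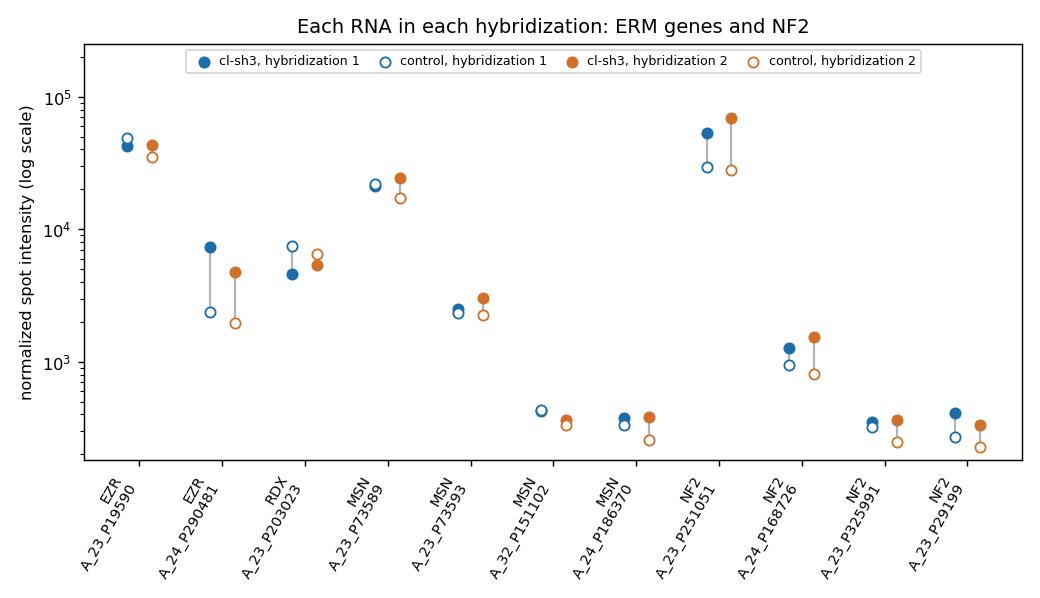
Normalized spot intensity (log axis) of cl-sh3 (filled) and control (open) in each hybridization for the probes of EZR, RDX, MSN and NF2; grey lines join the RNAs of 1 array, and levels are comparable within a probe only. Filled points lie above open points in both arrays for A_24_P290481 of EZR and for all 4 NF2 probes, and below them for RDX.

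At 1.5-fold in both hybridizations, 2 linker probes were higher in cl-sh3, A_24_P290481 of EZR and A_23_P251051 of NF2, against 1.35% of all measured probes. Counting direction alone, 9 of 19 linker probes were higher in both hybridizations, where 29.8% of all measured probes were, and 3 of 19 were lower in both, where 27.3% were. The 9 belong to 4 genes (4 of NF2, 2 of MSN, 2 of ADD1 and 1 of EZR). Probes of 1 gene read transcripts of that gene, the same or different variants, and are not independent. The other 7 probes changed sign with the dyes. The median over the 19 probes was 0.21 log2, with 0.10 in hybridization 1 and 0.30 in hybridization 2, beside 0.01 over all measured probes.

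**Figure D4:**
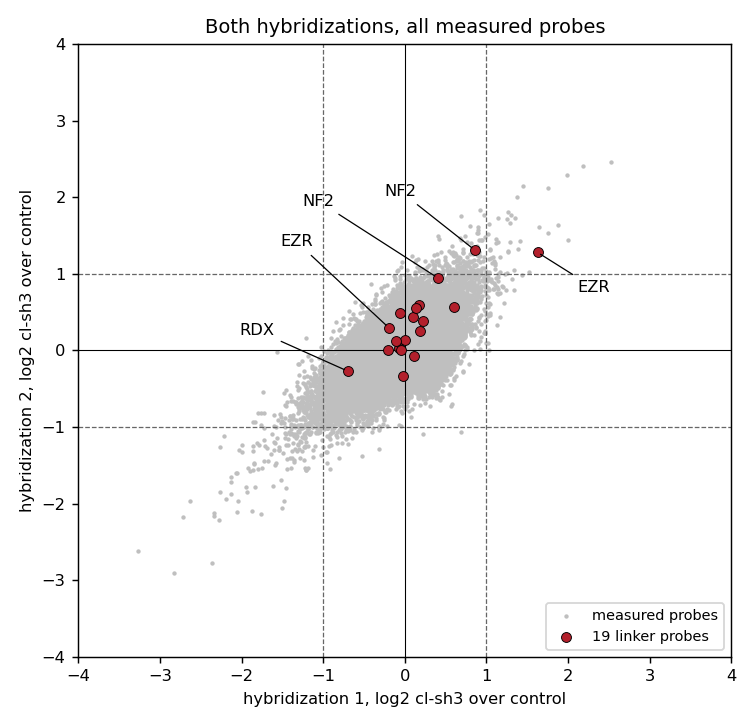
Log2 ratio of cl-sh3 over control in hybridization 1 (x axis) against hybridization 2 (y axis) for all 36060 measured probes (grey) and the 19 linker probes (red), with dashed lines at 2-fold. A_24_P290481 of EZR is in the upper right corner beyond both lines, the brightest NF2 probe is above the line of hybridization 2 only, and most linker probes lie in the central cloud.

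CD44, the hyaluronan receptor whose tail binds ERM proteins and merlin, had a mean log2 ratio of -0.10 ± 0.15 (SD). Its probe A_23_P24870 (NM_000610, chromosome 11) is spotted 10 times on each array and so shows the error within an array. In hybridization 1 the 10 spots ranged from -0.38 to -0.02 log2, with a mean of -0.21 ± 0.13 (SD over spots). In hybridization 2 the 8 spots without an outlier flag ranged from -0.13 to 0.20, with a mean of 0.00 ± 0.10 (SD over spots). All spots of hybridization 1 were below 0 and those of hybridization 2 fell on both sides. These spot SDs were close to the medians of 0.12 and 0.11 over 256 measured probes with 10 spots. The means of the hybridizations differed by more than either spot SD, and the spots of the arrays overlapped. The splice forms of CD44 that this probe reads were not analysed here.

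MARCKS and MARCKSL1 encode substrates of protein kinase C that tether actin to membrane phosphoinositides. The MARCKS probe (NM_002356, chromosome 6) read 53560 and 45301 in cl-sh3 against 54314 and 57008 in the control. The ratio was below 0 in both hybridizations, with nearly all of it in hybridization 2, and the mean was -0.18 ± 0.22 (SD). With median centring the signs opposed each other, at 0.32 and -0.32, and the mean was 0.00. The MARCKSL1 probe (NM_023009, chromosome 1) read 926 and 973 against 970 and 948, and its sign changed with the dyes.

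EPB41L2 and EPB41L3, FERM-domain proteins that anchor membrane proteins to spectrin and actin, had means near 0. EPB41L2 (NM_001431, chromosome 6) read 3552 and 3531 in cl-sh3 against 3841 and 3254 in the control, a mean of 0.00 ± 0.16 (SD). EPB41L3 (NM_012307, chromosome 18) read 352 and 333 against 326 and 350, a mean of 0.02 ± 0.13 (SD). Both genes overlapped between the clones and changed sign with the dyes.

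ADD1, the alpha subunit of adducin that caps actin filaments and recruits spectrin, was read by 3 probes of different transcript accessions on chromosome 4. The brightest, A_23_P212768 of NM_176801, read 20751 and 21320 in cl-sh3 against 17713 and 16318 in the control, and both cl-sh3 values were the higher. Its mean was 0.31 ± 0.11 (SD). A_24_P100742 of NM_014189 gave 0.22 ± 0.04 (SD), whereas A_24_P117866 of NM_001119 gave -0.02 ± 0.03 (SD). The 3 means spanned 0.33 log2, and 44% of 964 genes with 3 measured probes spanned at least as much.

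The wider pathway was taken as 7 lists of 103 genes in all, each gene read by its brightest probe, and 97 genes were measured. On that probe no gene of these lists passed the 2-fold rule upward or downward, where 0.136% and 0.52% of the 16150 measured genes were. At 1.5-fold, 2 genes were higher and 1 was lower, against 1.6% and 2.61% of all genes. In direction alone 38 were higher and 32 were lower in both, against 30.9% and 28.4%. The median over the 97 was 0.01 log2, beside 0.01 over all genes. Among the 10 linker genes, read the same way, 2 were higher in both (NF2 and ADD1) and 2 were lower (RDX and MARCKS), with a median of 0.01.

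**Figure D5:**
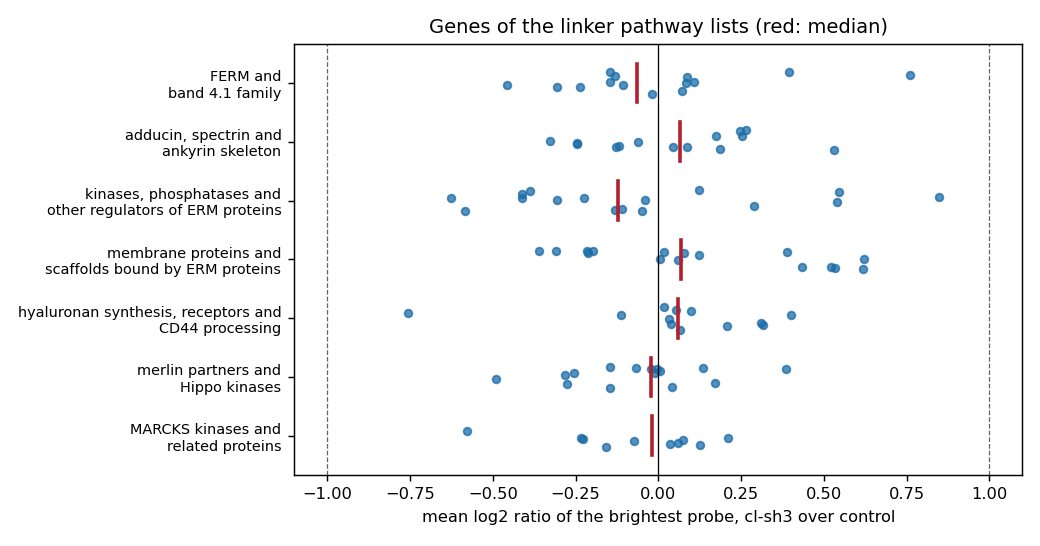
Mean log2 ratio of cl-sh3 over control (x axis) of the brightest probe of each measured gene in the 7 pathway lists (blue points, spread vertically for visibility), with the list median in red and dashed lines at 2-fold. The medians lie between -0.12 and 0.07, and no gene lies past 2-fold.

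The counts of each list are to be read beside the 30.9% of all genes that were higher and the 28.4% that were lower in both hybridizations. In the list of FERM and EPB41 family genes, 4 of 14 measured members were higher and 4 were lower in both hybridizations, with a median of -0.06. FRMD4A, a scaffold of epithelial polarity, read 1164 and 1070 in cl-sh3 against 742 and 583 in the control, a mean of 0.76 ± 0.16 (SD). FRMD6, the human counterpart of Drosophila Expanded, was lower on both of its probes, with means of -0.46 and -0.61. Among adducin, spectrin and ankyrin genes 8 of 14 were higher and 5 lower, with means between -0.33 and 0.53 and a median of 0.07.

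The list of kinases, phosphatases and other regulators of ERM proteins had 5 of 16 measured members higher and 9 lower, against 30.9% and 28.4% of all genes. Its median was -0.12. It held the widest values of the pathway. PPP1CB, a catalytic subunit of the myosin phosphatase that also dephosphorylates ERM proteins, was lower in both hybridizations on all 4 of its probes. Its probe A_23_P83414 read 1036 and 841 in cl-sh3 against 2962 and 2709 in the control, a mean of -1.60 ± 0.12 (SD), while the other 3 had means from -0.86 to -0.32. PPP1R12A, the targeting subunit of that phosphatase, gave opposite directions, with means of -0.39 and -0.47 on 2 probes and 0.75 on the third.

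ARHGDIA was higher in both hybridizations on its 3 probes. Its probe A_24_P133933 read 836 and 685 in cl-sh3 against 371 and 337 in the control and was past 2-fold in both, at 2.25-fold and 2.04-fold. The other ARHGDIA probes had means of 0.54 and 0.62. PIP5K1A, a kinase that makes the phosphoinositide to which ERM proteins bind, read 6584 and 5950 against 3915 and 3090 on its brightest probe, a mean of 0.85 ± 0.14 (SD). Its dimmer probes changed sign with the dyes.

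Membrane proteins and scaffolds bound by ERM proteins had 8 of 16 measured members higher and 4 lower, with means between -0.36 and 0.62 and a median of 0.07. In the list of hyaluronan synthesis, receptors and CD44 processing, 8 of 12 were higher and 1 was lower, where 30.9% and 28.4% of all genes were. The list median was only 0.06, and 0 of its genes were 1.5-fold higher in both hybridizations. Some of the 8 were dim, reading no more than 307 in any channel, with means as low as 0.05. The 1 lower gene was HMMR, a hyaluronan receptor that also acts on the mitotic spindle, with 5090 and 5324 in cl-sh3 against 9380 and 8242 in the control and a mean of -0.76 ± 0.18 (SD). Of 15 merlin partners and Hippo kinases 3 were higher and 6 were lower, with means between -0.49 and 0.39. Of 10 MARCKS kinases and related proteins 2 were higher and 3 were lower.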

How the data were processed

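2-colour arrays of cl-sh3 against the control clone were hybridized with reversed dyes. The authors deposited scanner intensities per spot from Feature Extraction 10.5.1.1 (version in the file headers; the submitters' processing notes name 8.5.1.1) and log10 ratios of Cy5 over Cy3 made by that software, which are also in the deposited table. Signals were medians over pixels, as the files hold, although means had been planned. In limma 3.58.1 (R 4.3.3), the background was corrected by normexp with an offset of 50, and signals were normalized by loess within each array. Control spots had weight 0, outlier-flagged spots were left out, spots of a probe were averaged, and the sign of hybridization 2 was turned. A probe was measured if 1 RNA or both were well above background (at least 50% of spots) in both hybridizations and it had a value in each. The software flagged between 77.3% and 93.9% of spots in a channel as well above background, and no spot was saturated. The number of arrays limits the precision.

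Gene names came from RefSeq's GRCh38.p14 gene table, which held 18023 of 19228 RefSeq accessions, and the RUNX2 accession NM_004348 through the study's supplementary gene list. The members and pathway lists were chosen with earlier results of these data known. Named were all probes of the members, RUNX2, the markers used, and list genes with a probe past 1.5-fold in both hybridizations, at most 3 in each direction of a list. A gene's brightest probe stands for it, and a gene whose brightest probe was not measured was left out. The fold rule was run before use on simulated data with preset noise and changes well past 2-fold. That run does not cover changes near 2-fold or the spread seen between these hybridizations. Figures and tables were made with Python 3.11.15, pandas 2.3.3 and matplotlib 3.10.9.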

Additional observations from a re-analysis of the deposited data

How the results depend on the processing

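A_24_P290481 of EZR stayed past 2-fold in cl-sh3 in both hybridizations under each alternative that keeps both: no background correction, an offset of 0, centring on the median, Aquantile after loess, flagged spots kept, no detection filter, both RNAs required, the software's log ratios and the deposited table. Its mean ranged from 1.41 to 1.54. RDX ranged from -0.49 to -0.42 and the brightest NF2 probe from 1.08 to 1.24. Some of these alternatives are not separate checks. Aquantile leaves every log ratio as it was, and the detection settings keep every linker probe with the same values. The deposited table holds the software's log ratios, apart from rounding.

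With median centring in place of loess, 2 linker probes were 2-fold higher, 14 were higher in both hybridizations and 1 was lower in both. The 14 were all probes of EZR, MSN, NF2, ADD1 and MARCKSL1, and the 1 was RDX. Leaving out 1 hybridization gave between 1 and 2 probes 2-fold higher, between 10 and 15 higher, and between 4 and 9 lower. The second 2-fold probe was A_23_P251051 of NF2, with median centring and in hybridization 2 alone. Of 77 counts and medians recomputed, 71 stayed within 1.5 times or within the spread between hybridizations. Part of these could not differ, since Aquantile and the detection settings return the same values for the linker probes. Of 184 recomputed values of single probes and genes, 14 moved by more than that spread. The mean over all probes of a gene was 0.75 for EZR, against 0.05 on its brightest probe, and 0.67 for NF2 against 1.08. No paired analysis was possible because the 2 hybridizations are 1 pair of RNAs and no test was made. None of the changes, EZR included, has an error from separate cultures.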
